A study of Homo sapiens and Mus musculus with 25 samples.

Results

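The genes described here encode the proteins of the cytosolic ribosome, read at their promoters in peak lists of histone H3 lysine 4 (H3K4) methylation from K562, the erythroid-like human line established from chronic myeloid leukaemia cells. Members were the protein-coding genes of GENCODE release 44 on chromosomes 1 to 22 and X whose symbol begins RPL or RPS followed by a digit, together with RPLP0, RPLP1, RPLP2, RPSA and FAU, and symbols beginning RPS6K, which name kinases, were left out. The rule found 90 of 19962 genes, 55 with large subunit (60S) symbols and 35 with small subunit (40S) symbols, on 21 chromosomes. It used no measured value. It also takes in 8 paralogues, 3 readthrough symbols that start at or near a ribosomal protein gene, and RPS19BP1, whose product binds RPS19 and is not a ribosomal protein. The other 78 are the ribosomal protein genes proper.

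Libraries came from ICeChIP-seq, a form of ChIP-seq calibrated by adding barcoded nucleosomes of known modification to the chromatin before immunoprecipitation. Groups were defined by the antibody's stated target: 5 antibodies against H3K4me1, 4 against H3K4me2 and 8 against H3K4me3, all applied to K562 chromatin, plus 1 list each for H3K9me3 and H3K27me3 and 3 lists that the authors corrected for off-target capture. The labels name no treatment, genotype or time point that separates the groups. The antibody is the replicate. The labels name no separate cultures, so the spread and the p-values are those between antibodies, which may be technical.

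Ribosomal protein genes are housekeeping genes that are transcribed at high rates in growing cells, and their products are assembled in the nucleolus into the large and small subunits. Their mRNAs start with a C followed by a run of pyrimidines, the 5′ terminal oligopyrimidine (TOP) motif, through which mTOR signalling controls their translation. At active promoters H3K4me3 typically lies on the nucleosomes flanking the start site, with H3K4me2 and then H3K4me1 further out, and erythroid cells are sensitive to the loss of a ribosomal protein gene copy, as in Diamond-Blackfan anaemia.

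The promoters are shown first because the start site is the point from which every later value is measured. RefSeq promoters (GRCh38.p14) were matched by symbol for 71 of the 90 members. Each sequence below runs 5′ to 3′ on the gene's strand, with 60 bases before the RefSeq start site and 20 from it, and the longest run of C and T that reaches within 10 bases of the start is in capitals. RPLP0, RPS19 and RPS24 stand for the stalk and for genes of Diamond-Blackfan anaemia. RPL21, RPL28 and RPL36A had H3K4me3 peaks over the whole window with all 8 antibodies. RPS7, RPS4X and RPL10L had such peaks with the fewest antibodies among the members with a matched promoter.
RPLP0, chr12:120201092-120201171, minus strand: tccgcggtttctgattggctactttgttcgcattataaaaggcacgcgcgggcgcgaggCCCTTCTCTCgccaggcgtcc
RPS19, chr19:41860195-41860274, plus strand: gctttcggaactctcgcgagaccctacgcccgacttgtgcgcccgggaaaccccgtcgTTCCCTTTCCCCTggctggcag
RPS24, chr10:78033803-78033882, plus strand: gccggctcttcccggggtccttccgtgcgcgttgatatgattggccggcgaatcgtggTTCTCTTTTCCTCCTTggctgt
RPL21, chr13:27251498-27251577, plus strand: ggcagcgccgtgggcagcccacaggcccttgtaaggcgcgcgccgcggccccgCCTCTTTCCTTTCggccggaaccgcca
RPL28, chr19:55385872-55385951, plus strand: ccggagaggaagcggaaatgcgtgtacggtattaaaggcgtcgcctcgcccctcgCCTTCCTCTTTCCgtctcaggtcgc
RPL36A, chrX:101390951-101391030, plus strand: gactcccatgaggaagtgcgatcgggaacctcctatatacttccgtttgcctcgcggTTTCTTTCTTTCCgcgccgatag
RPS7, chr2:3575200-3575279, plus strand: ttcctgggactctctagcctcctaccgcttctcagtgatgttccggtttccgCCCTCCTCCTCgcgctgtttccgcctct
RPS4X, chrX:72277229-72277308, minus strand: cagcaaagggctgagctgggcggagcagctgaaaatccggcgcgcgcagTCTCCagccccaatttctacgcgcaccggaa
RPL10L, chr14:46651762-46651841, minus strand: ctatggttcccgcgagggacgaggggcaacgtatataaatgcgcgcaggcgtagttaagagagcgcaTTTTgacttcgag

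A run of at least 6 C or T at the start was found in 61 of the 71 matched members (85.9%), against 30.4% of 15314 matched genes and 26.1% of 69 matched mitochondrial ribosomal protein genes. The median run was 11 bases in the members and 4 in all genes. Among the sequences printed, the promoters with short runs are those of RPS4X, with 5, and RPL10L, with 4. RPS7, which has few H3K4me3 peaks, carries a run of 11. Short runs also occurred at members with a peak in all 8 H3K4me3 lists, such as RPL7L1 (2), RPS27L (3) and RPL32 (5). A link between run length and peaks was not tested. The letters CGGAAG, the core of ETS family sites, occurred on either strand of the window from 250 bases before to 50 after the start in 60.6% of the members and 25.8% of all genes. GGGCGG, the core of Sp1 sites, occurred in 54.9% and 59.2%, AAGATGG, part of the YY1 site, in 14.1% and 6.43%, and TATAAA in 9.86% and 9.64%. In the matched mitochondrial ribosomal protein genes the shares were 53.6% for CGGAAG, 60.9% for GGGCGG, 33.3% for AAGATGG and 2.90% for TATAAA. The members' median was 59.3% GC, with 25 CpG dinucleotides per promoter, against 63.0% and 22 in all genes. All motifs were searched on both strands, CGGAAG and GGGCGG can overlap by their shared CGG, and the shares describe these windows only. The RefSeq start lay within 10 bases of the GENCODE start for 62 of the 71, and among the others it lay 12330 bases away at RPS29 and 1837 bases away at RPL6, so that their motifs and peaks belong to different sites.

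The members are compact genes. Their canonical transcripts spanned a median of 4621 bases, against 22925 for all genes, and their first exon 43.5 bases against 185. Another coding start site lay within the window in 22 members (24.4%, against 14.1% of all genes), as at RPL9 with LIAS 134 bases away on the opposite strand, and peaks there cannot be assigned to one gene. RPS10 and RPS10-NUDT3, RPL36A and RPL36A-HNRNPH2, and RPL17 and RPL17-C18orf32 share their peaks and are not independent.

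Lists differed widely in extent, from 13311 peaks (EpiGentek A-4033-050) upward, and the files give no read depth. A window without a listed peak is therefore not shown to be unmodified. As a check of the cell line, 13 of 16 erythroid genes had a peak with at least 5 of 8 H3K4me3 antibodies, against 2 of 15 genes of other lineages. The libraries of Diagenode C15410003 and EpiGentek A-4033-050 were run beside another input than the other 15. Amplification took 12 cycles for 4 antibodies (EMD Millipore 05-1338 for H3K4me2, and for H3K4me3 Thermo Fisher PA5-40086, Abclonal A2357 and Abcam ab12209) and 8 for the others.

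The first question was how regularly the ribosomal protein promoters were marked. In the window reaching 1 kb to each side of the start site (TSS), 86 of the 90 members (95.6%) held a peak in at least 5 of the 8 H3K4me3 lists, against 52.9% of all genes. All 8 lists held one at 68 members (75.6%), against 31.1% of all genes, and all 17 H3K4 lists at 60 members (66.7%), against 27.9%. In all 8 lists were 43 of 55 large subunit members and 25 of 35 small subunit members. Members with a peak made up 91.9% ± 6.28 for H3K4me3 (SD, n = 8 antibodies), 95.3% ± 3.56 for H3K4me2 (n = 4) and 92.0% ± 7.00 for H3K4me1 (n = 5). The same shares over all genes were 54.9%, 76.0% and 78.0%. For H3K4me3 the members' share ran from 77.8% to 97.8% with a median of 94.4%, and the lowest was that of EpiGentek A-4033-050.

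**Figure D1:**
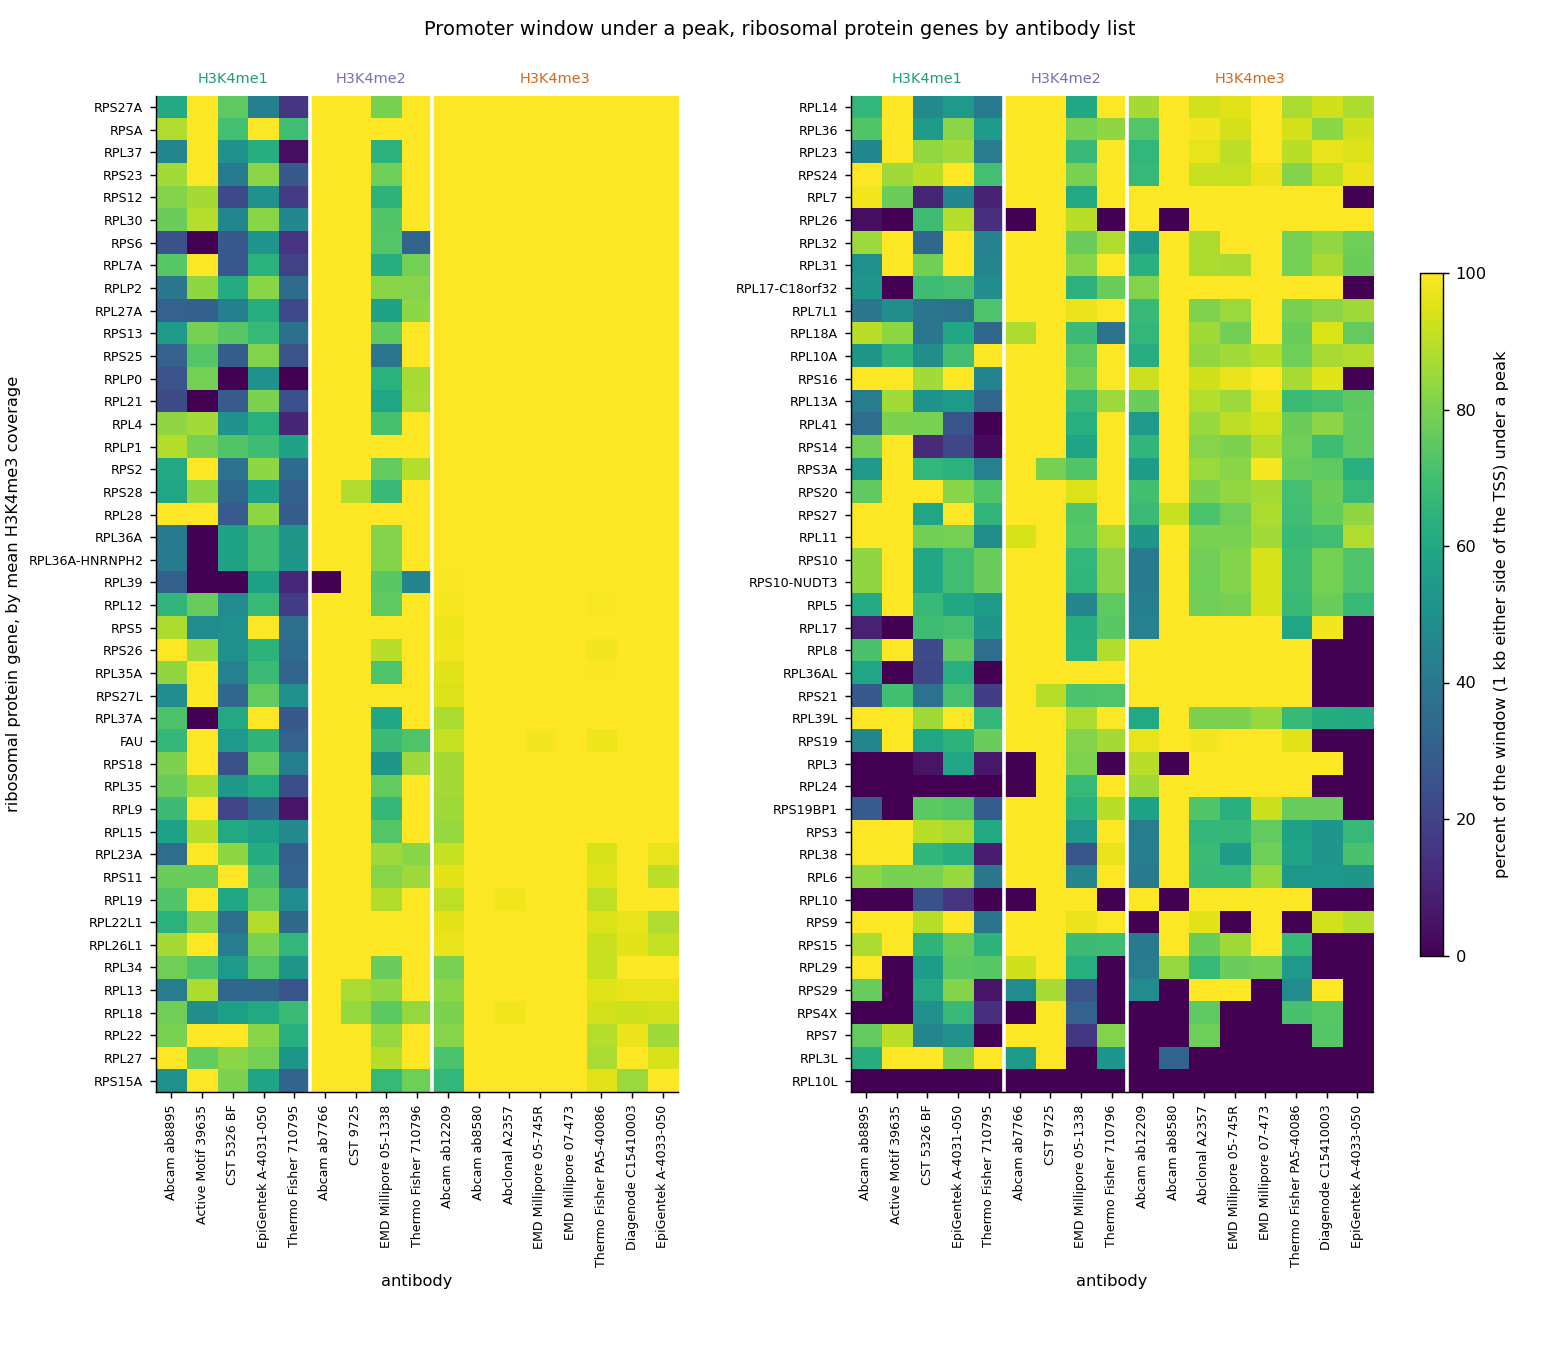
Each cell shows the percent of the window of 1 kb either side of the TSS under a peak (colour, 0 to 100), for 88 of the ribosomal protein genes (rows, ordered by mean H3K4me3 coverage over 2 panels) and 17 antibodies (columns, grouped by target; CST is Cell Signaling Technologies). The H3K4me3 columns are full or nearly full for most genes, RPL10L is empty throughout, and RPL3L is covered by H3K4me1 but hardly by H3K4me3.

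Members that were missing from H3K4me3 lists fell into a few kinds. RPL10L, an intronless paralogue of RPL10 known for its expression in the testis, had no peak in any of the 17 lists. RPL3L, a paralogue of RPL3 known from striated muscle, had an H3K4me3 peak in the Abcam ab8580 list alone, where small peaks reached 32.7% of the window, and H3K4me1 peaks in all 5 lists. Its H3K4me1 coverage was 62.4%, 100%, 100%, 80.8% and 100%, and it was the single member that passed the test of coverage described below with more H3K4me1 than H3K4me3. The 2 groups of antibodies did not overlap there (88.6% ± 16.9 against 4.09% ± 11.6, adjusted p = 0.00643 in the exact permutation test).

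RPS7, a small subunit protein and a gene of Diamond-Blackfan anaemia, had an H3K4me3 peak in the Abclonal A2357 and Diagenode C15410003 lists, covering 78.1% and 73.6% of the window, and 0 in the other 6. The Abclonal peak spanned the TSS, reached 2380 bases downstream and carried an authors' value of 75.4, the column that the authors gave each peak, read here as an apparent modification density. That value ranked 10 among the 88 members with a value in that list and lay above 98.7% of the promoters with a peak there. The lists thus disagree on whether RPS7 has a peak, while the list that has it places it among the highest. RPS4X, the X-linked form of a small subunit protein, had peaks in 3 lists, from Abclonal A2357 (value 63.7), Thermo Fisher PA5-40086 (44.6) and Diagenode C15410003. Its Abclonal value ranked 42 of the 88 and lay above 92.7% of the promoters with a peak there. In the Thermo Fisher PA5-40086 list its value ranked 64 of 86 members and lay above 75.1% of such promoters.

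The authors' value was then set against the number of lists, first for the members and then for all genes. In the Abclonal list the 68 members found by all 8 antibodies had a median value of 61.4 (44.6 to 91.9), and the 20 found by 1 to 7 had 64.0 (37.6 to 88.7). Over all genes the same medians were 48.0 and 39.7. In the Thermo Fisher PA5-40086 list the members' medians were 48.3 and 49.3 and those of all genes 38.9 and 31.7.

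Absences were most frequent in the 2 lists run beside the other input, with 20 members lacking a peak in that of EpiGentek A-4033-050 and 10 in that of Diagenode C15410003, against 2 to 7 in the other 6. All 6 H3K4me3 lists beside the first input had a peak at 81 members (90.0%), against 48.3% of all genes. Of those 81, RPL29, RPL24, RPL8, RPL36AL, RPS15, RPS19 and RPS21 were in neither of the other 2 lists. That is 7 members, or 8.64%, against 23.1% of the genes over the whole genome that all 6 lists held. RPS19, the gene most often mutated in Diamond-Blackfan anaemia, is an example: H3K4me3 covered 96.2%, 100%, 98.1%, 100%, 100% and 95.7% of its window with the 6 antibodies and 0% with Diagenode C15410003 and EpiGentek A-4033-050. The part of the input, the antibody or the peak calling in this was not tested.

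The next comparison set the mean percent of the window under a peak against each other between targets. H3K4me3 covered most of the window at ribosomal protein genes, 84.9% ± 7.72 on average over members (SD, n = 8 antibodies), against 43.8% over all genes. H3K4me2 covered 85.8% ± 11.5 (n = 4), against 65.3%, and H3K4me1 58.4% ± 13.8 (n = 5), against 58.8%. For each gene the antibodies' means were compared by an exact two-sided permutation test, with Benjamini-Hochberg adjustment over all 19962 genes and a threshold of 0.05. H3K4me1 coverage was below H3K4me3 coverage at 45 members (50.0%), against 12.2% of all genes, and above it at 1 member, RPL3L, against 27.7% of all genes. The median difference was a fall by 31.9 percentage points in the members, against a rise of 7.55 over all genes. The other 44 members did not pass.

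RPLP0, which anchors the stalk that recruits translation factors to the large subunit, had the smallest adjusted p of this test. That value is a floor: 2411 of the 19962 genes, in either direction, had the smallest p the test can give. H3K4me1 covered 25.4%, 79.3%, 0%, 50.8% and 0% of its window with the 5 antibodies, and all 8 H3K4me3 antibodies covered 100%. Every H3K4me1 value lay below every H3K4me3 value (31.1% ± 34.2 against 100%, adjusted p = 0.00643, exact permutation test). RPLP1 and RPLP2, which form dimers on that stalk, were also covered in full by all 8 H3K4me3 antibodies. H3K4me1 covered 88.5%, 79.6%, 73.0%, 69.1% and 58.1% at RPLP1 and 39.6%, 83.2%, 61.4%, 82.2% and 35.5% at RPLP2. The groups of antibodies did not overlap at either gene, and all 3 stalk genes were lower for H3K4me1, against 12.2% of all genes.

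RPL39, a small protein of the exit tunnel encoded on chromosome X, had the largest fall among the members called, by 80.2 percentage points, from at least 99.6% with every H3K4me3 antibody to 31.0%, 0%, 0%, 56.9% and 11.0% with the H3K4me1 antibodies. Low H3K4me1 coverage was general on chromosomes 13, 14 and X, with a median of 16.9% over all genes there, against 70.5% elsewhere. For H3K4me3 these medians were 7.91% and 46.1%. RPS6, a small subunit protein phosphorylated downstream of mTOR, had 100% with every H3K4me3 antibody and 24.7%, 0%, 28.0%, 51.8% and 15.5% with the H3K4me1 antibodies. The groups did not overlap at either gene. RPL24 shows the other extreme of H3K4me1, with 0 peaks in the 5 lists. It had H3K4me3 over 85.8% or more of the window in 6 lists and 0 in the other 2, and its difference did not pass (adjusted p = 0.0512, exact permutation test).

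Some members carried both marks over most of the window. At RPS24, a gene of Diamond-Blackfan anaemia, H3K4me1 covered 100%, 85.7%, 89.5%, 100% and 70.3% and H3K4me3 between 66.9% and 100% with a median of 91.4%. The ranges overlapped, and the difference fell by 0.32 percentage points (adjusted p = 1, exact permutation test). Higher means for H3K4me1 that did not pass either were largest at RPS7, RPS9 and RPS3, by 33.5, 25.8 and 21.4 points (adjusted p = 0.222, 0.377 and 0.102, exact permutation test).

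These calls depend on the libraries and on the window. Without Cell Signaling Technologies 5326 BF 26 members were called (5.97% of all genes), and with the libraries of 8 cycles alone, 5 against 5 antibodies, 0 members and 0 genes were called, with 48 members at an unadjusted p under 0.05 and a median fall of 31.96 points. In a window of 2.5 kb either side 3 members were called, against 1.28% of all genes, and the members' median difference turned positive, at 15.7 points.

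H3K4me2 was compared with each of the other marks. Against H3K4me3 no gene was called in either direction (0% of all genes higher, 0% lower), with 7 members at an unadjusted p under 0.05, 6 of them higher and 1 lower for H3K4me2. Against H3K4me1 no gene was called either (0% higher and 0% lower), with 26 members at an unadjusted p under 0.05, all lower for H3K4me1. The members' median difference was 0 points for H3K4me2 against H3K4me3, with 19.0 for all genes, and a fall by 27.8 for H3K4me1 against H3K4me2, with a fall by 4.69 for all genes. The smallest adjusted p was 0.136 and 0.301 in the 2 exact permutation tests. Without Abcam ab8580, 2 members were called for H3K4me2 against H3K4me3, against 12.2% of all genes. At RPLP0 the 4 H3K4me2 antibodies covered 100%, 100%, 63.9% and 86.9%. The lowest H3K4me2 values at most members were those of EMD Millipore 05-1338, which covered 71.0% of the window on average and 10 of the 90 windows in full, while Cell Signaling Technologies 9725 covered 82 in full.

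Position within the promoter was compared next. In the mean over H3K4me1 antibodies, 31.6% ± 16.7 of the members had a peak over the TSS itself, against 45.5% ± 11.1 of all genes, while 2 kb away 84.4% ± 3.93 had one upstream and 90.4% ± 8.19 downstream, against 66.2% and 68.7%. The lowest point, 30.2%, lay 100 bases downstream of the TSS. H3K4me3 showed the opposite shape. A peak lay over the TSS at 86.8% ± 13.4 of the members (n = 8), against 49.3% ± 12.5 of all genes, and at 18.3% ± 23.0 of them 2 kb upstream and 52.9% ± 26.6 downstream, against 13.0% and 18.1%. Its highest point in the members, 91.9%, lay 600 bases downstream, and in all genes, 50.1%, 100 bases downstream. H3K4me2 was highest 950 bases downstream (93.9%) and lower over the TSS (68.1% ± 30.2, n = 4).

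**Figure D2:**
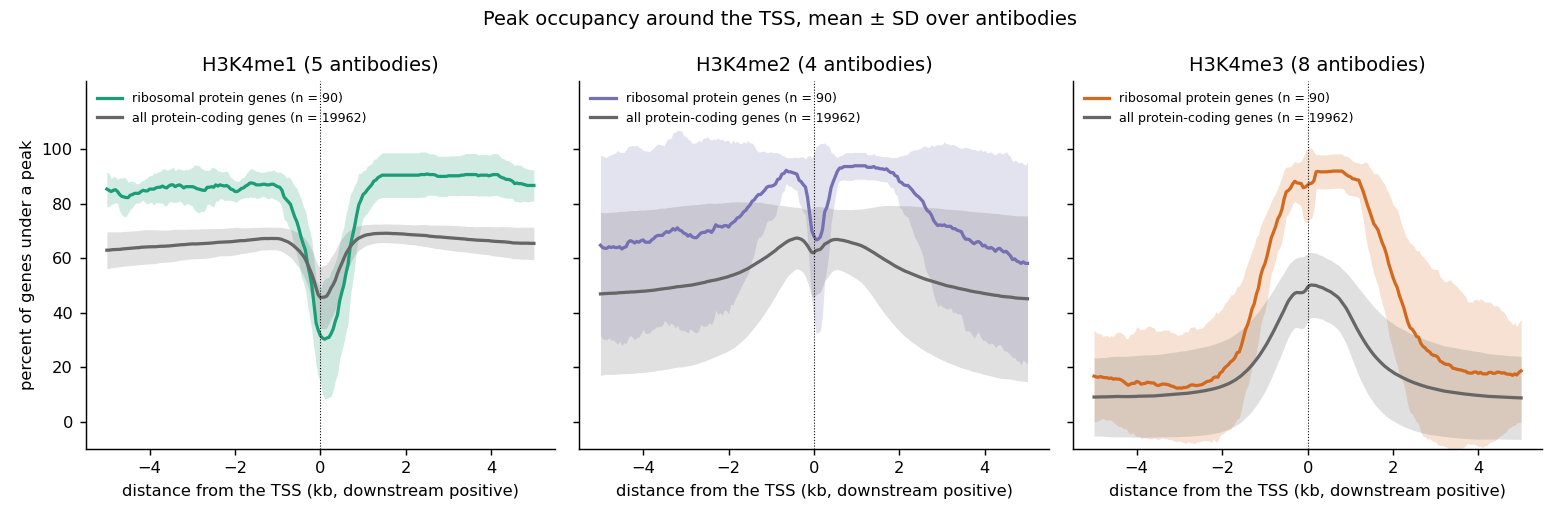
Lines show the percent of genes with a peak at each position from 5 kb upstream to 5 kb downstream of the TSS (horizontal axis, kb), as the mean over antibodies of 1 target, and bands show ± SD over the antibodies, which can pass 0 and 100. At ribosomal protein genes (colour) H3K4me1 falls to 30.2% near the TSS, below the line of all genes (grey), and H3K4me3 stays above that line on both sides, further downstream than upstream.

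This shape was then tested gene by gene. For each antibody the coverage within 250 bases of the TSS minus that from 1 to 2 kb away was taken as the TSS contrast. The contrast is negative where the mark covers less near the start site than in the flanks. It is 0 where both are covered alike, also where neither has a peak. Averaged over members it was 33.6 ± 14.1 percentage points for H3K4me3 (SD, n = 8). It was -12.4 ± 13.9 for H3K4me2 (n = 4) and -51.8 ± 22.5 for H3K4me1 (n = 5). Over all genes the 3 values were 26.3, 4.70 and -19.5. The contrast was lower for H3K4me1 than for H3K4me3 at 83 members (92.2%), against 48.4% of all genes. The median difference was a fall by 84.7 points in the members and by 40.8 over all genes. Members that did not pass were RPL10L, RPL3L, RPL24, RPS3, RPS29, RPS9 and RPL17-C18orf32. With the libraries of 8 cycles alone 30 members were called (16.9% of all genes), and 78 had an unadjusted p under 0.05.

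RPS28, a small subunit protein near the mRNA exit site, had the largest difference, with contrasts of -100, -63.3, -100, -100 and -100 points for H3K4me1 and from 0 to 81.2 points, with a median of 48.3, for H3K4me3. All 5 H3K4me1 values were below all 8 H3K4me3 values. RPL12, which forms the base of the stalk with RPLP0, had -100, -71.7, -100, -82.8 and -100 points for H3K4me1 and from 9.30 to 50.0, with a median of 40.8, for H3K4me3, again without overlap. Of all 19962 genes, 3140 had the smallest p this test can give, in either direction. RPLP0 had -100, -52.3, -94.4, -84.0 and -88.2 points for H3K4me1 and values from 0 upward, with a median of 23.6, for H3K4me3. RPS12 had a low H3K4me1 contrast, -72.7 ± 19.3, and an H3K4me3 contrast of 0.20 ± 0.57, since H3K4me3 covered both the TSS and its flanks. RPL26L1, a paralogue of RPL26, and RPL39L, a paralogue of RPL39, had the highest H3K4me3 contrasts, 84.2 ± 23.9 and 81.3 ± 35.7.

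**Figure D3:**
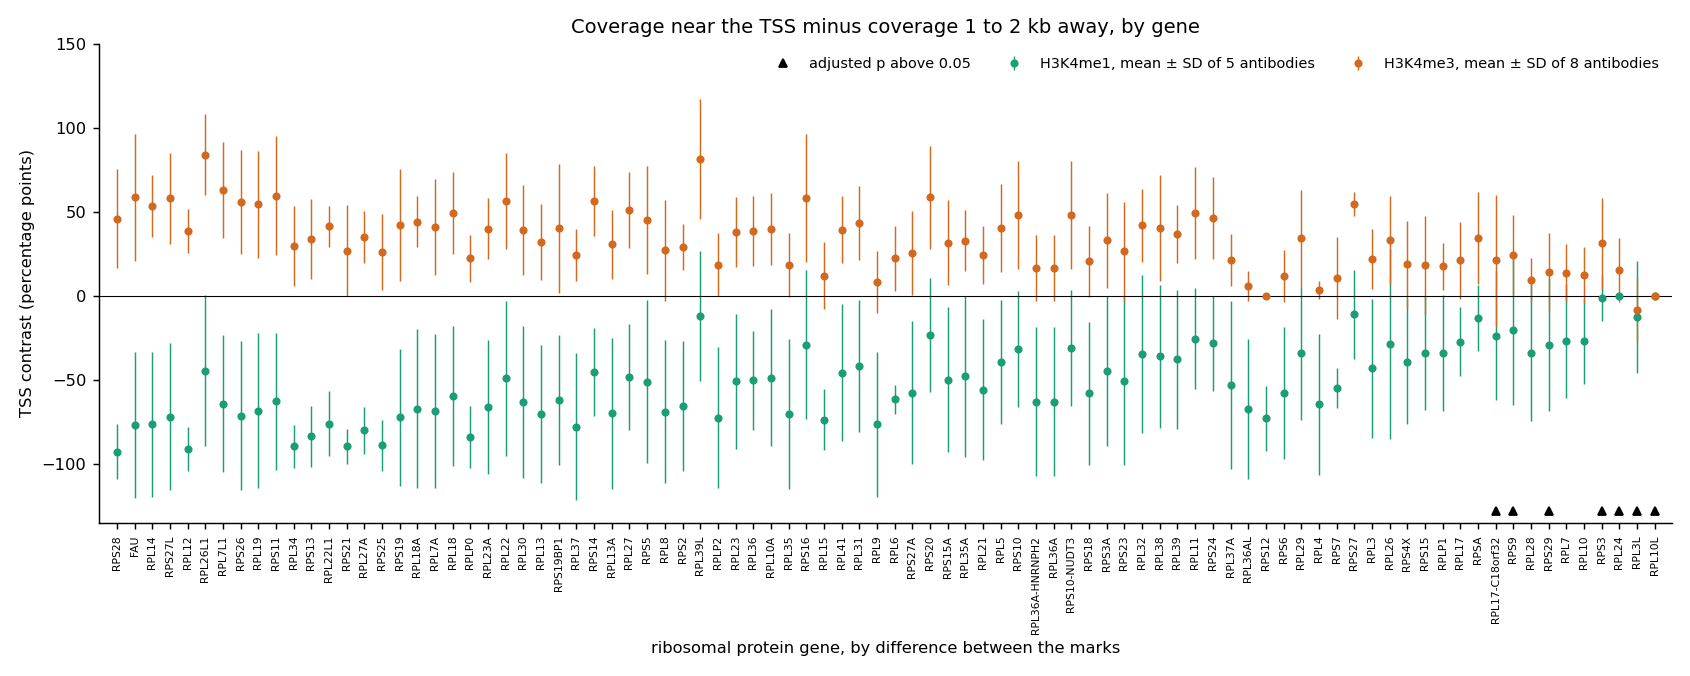
Points show the mean TSS contrast (vertical axis, percentage points) and lines its SD over 5 H3K4me1 and 8 H3K4me3 antibodies, for 88 of the ribosomal protein genes ordered by the difference between the marks. The H3K4me1 means lie at or below 0 for all 88 genes and the H3K4me3 means at or above 0 for all but RPL3L; triangles mark the 7 genes whose adjusted p is above 0.05.

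Where the TSS lay in a gap between H3K4me1 peaks, the gap was a median of 849 ± 331 bases wide at the members (SD, n = 5 antibodies), against 728 ± 221 at all genes, and reached further downstream than upstream (507 ± 202 against 303 ± 120 bases). Gaps were counted only where the window held a peak and both flanking peaks lay within 5 kb of the TSS, so gaps reaching further were left out. Such gaps were present at 20 members with Active Motif 39635 and at 70 with Thermo Fisher 710795, and the other 3 antibodies lay between (43, 61 and 62). H3K4me3 was also asymmetric. Peaks over the TSS reached a median of 2448 ± 1217 bases downstream and 1362 ± 573 upstream at the members (n = 8), against 1512 and 1033 at all genes. The downstream arm was the longer at 84.8% ± 5.19 of the members, from 73.1% with Abcam ab12209 to 89.8% with Abclonal A2357, and at 70.5% ± 3.43 of all genes. With Abcam ab12209 the share was 73.1% at the members and 72.8% at all genes, so that antibody showed little difference.

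The H3K4me3 peaks of ribosomal protein genes were wide. The median width of the widest peak at each promoter averaged 3865 ± 2005 bases over antibodies (n = 8), against 2574 ± 1032 at all promoters with a peak. Within a list the members' median was 1.46 ± 0.158 times that of all genes, between 1.21 (Abcam ab12209) and 1.70 (Abcam ab8580), and above 1 in all 8 lists. For H3K4me2 this ratio was 1.32 ± 0.117 (n = 4). For H3K4me1 it was 1.17 ± 0.296 (n = 5), from 0.745 with Active Motif 39635 to 1.44 with EpiGentek A-4031-050. Among genes with a peak in all 8 lists, the median width over lists was 6438 bases at RPL27A, 5662 at RPS18 and 5567 at RPS2. RPL39L had the narrowest, 1488. The medians of RPL27A and RPS18 lay between a narrower and a wider set of lists. With Abcam ab12209 the RPS18 peak was 1861 bases wide, below the members' median of 2145 in that list. At RPS2 the H3K4me3 peak was 3154, 8539, 7131, 7219, 7495, 3223, 4002 and 3243 bases wide, so that it fell into a wider and a narrower set of antibodies.

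**Figure D4:**
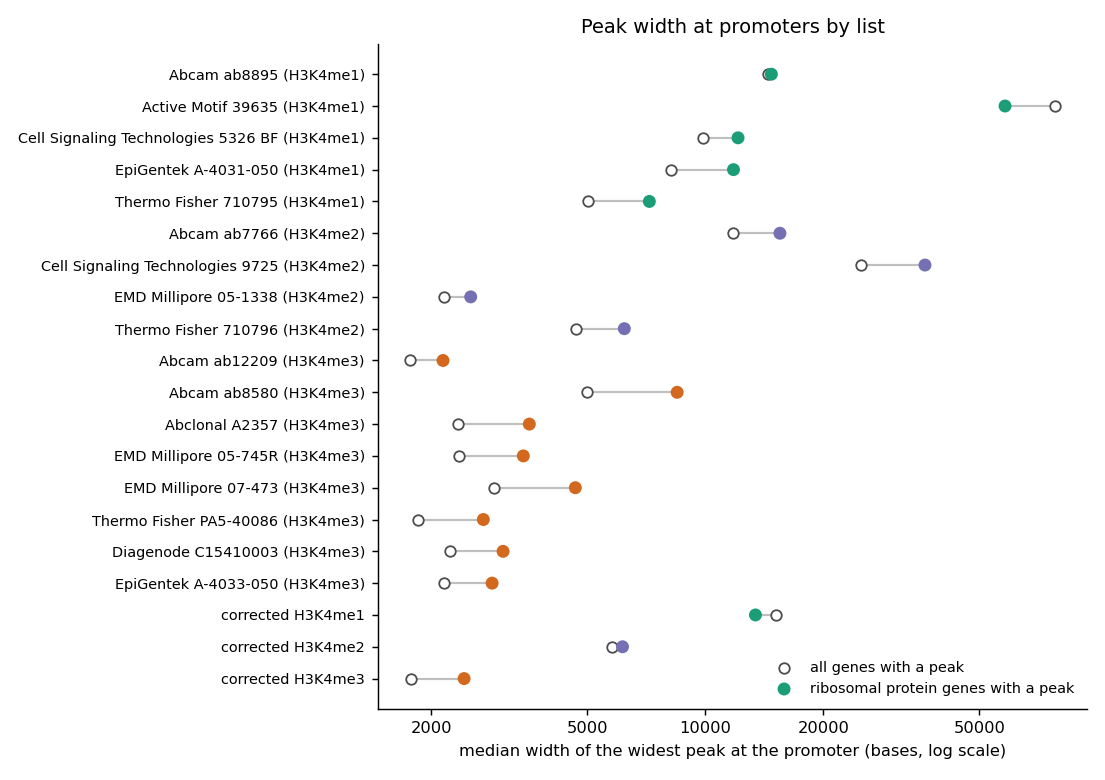
Filled points show the median width (bases, log axis) of the widest peak at ribosomal protein gene promoters, coloured by target, and open points that at all promoters with a peak, for 17 antibodies and the 3 corrected lists. The filled points lie to the right in all 8 H3K4me3 lists and to the left for Active Motif 39635 and the corrected H3K4me1 list.

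H3K4me1 peaks were wider than H3K4me3 peaks at nearly every gene that could be tested. Of the 60 members with a peak in all 13 lists, 56 had wider H3K4me1 peaks (93.3%), against 95.9% of the 5583 genes tested, so the members' share is near that of all genes. The geometric mean width of H3K4me1 peaks exceeded that of H3K4me3 peaks by between 1.86-fold (RPS2) and 13.7-fold (RPL38) in the members, and the median log2 difference was 2.24, against 2.68 for all genes. At RPL38 the widths were 31846, 95248, 26072, 17015 and 16685 bases for H3K4me1 and 1079 to 11211, with a median of 1737, for H3K4me3. RPS2, RPL13, RPL27A and RPL23A did not pass.

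The authors' value per peak was compared in the same way. In the 5 H3K4me3 lists that hold values, the median over members averaged 47.6 ± 8.93, against 38.1 ± 4.66 over all genes with a peak, and it was higher in each of the 5 lists (for Abclonal A2357 62.3 against 45.0 and for EMD Millipore 05-745R 43.2 against 39.2). For H3K4me1 the medians averaged 23.6 ± 4.13 against 21.1 (n = 5) and for H3K4me2 26.2 ± 4.36 against 23.3 (n = 4). With EMD Millipore 05-1338 the H3K4me2 median was lower at the members, 19.8 against 20.2. Ranked over 84 members with a value in all 5 H3K4me3 lists, RPS25 stood highest (54.7, 77.7, 54.3, 61.3 and 66.3) and RPL17 with its readthrough symbol lowest (29.6, 37.6, 26.8, 33.6 and 32.2).

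The corrected lists were read next. A corrected H3K4me1 peak lay at 81 members (90.0%, against 71.4% of all genes), or at 52 members where 50% of the window had to be under a peak. There was a corrected H3K4me2 peak at 68 (75.6%, against 55.1%) and a corrected H3K4me3 peak at 20 (22.2%, against 18.1%). All 20 with H3K4me3 also had the other 2, 46 had H3K4me1 and H3K4me2 without H3K4me3, 15 had H3K4me1 alone, 2 had H3K4me2 alone and 7 had none. Among genes with a peak in all 8 uncorrected H3K4me3 lists, 18 of 68 members (26.5%) had a corrected H3K4me3 peak, against 44.2% of all such genes and 45 of 61 mitochondrial ribosomal protein genes (73.8%). The corrected lists were computed from 4 of the same libraries, so these counts are not independent of those above, and with 1 list per mark they have no replicate.

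The share with a corrected H3K4me3 peak differed by chromosome. Of genes in all 8 lists it was 58.8% on chromosome 1, 67.2% on chromosome 7, 26.8% on chromosome 19, 6.00% on chromosome 14, 4.55% on chromosome 13 and 0% on chromosome X. None of the 12 members on chromosome 19 had one, but RPS9, RPS15, RPS16 and RPS19 among them were not in all 8 lists. If each of the 68 members had its chromosome's share, 39.4% would have a corrected peak, against the 26.5% observed. The same figure for the mitochondrial ribosomal protein genes was 45.0%, against 73.8%. In the libraries used for the correction, members in all 8 lists with and without a corrected H3K4me3 peak had medians of 88.8% and 89.2% of the window under Abcam ab12209 peaks, with values of 39.3 and 37.6. For the Abcam ab7766 (H3K4me2) peaks the values were 23.6 and 28.8, lower in the members with a corrected H3K4me3 peak. What sets these members apart was not tested.

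The 20 corrected H3K4me3 peaks were 1265 to 3316 bases wide with a median of 2428, against 1780 for all genes. Their values ran from 36.9 to 60.1 with a median of 47.4, against 45.0. Wide ones lay at RPL37 (3316), RPL7L1 (3145), RPS24 (3066) and RPL7 (3040), and the narrowest at RPL39L (1265), RPL5 (1702), RPL14 (1860), FAU (1974) and RPL26L1 (2002). The highest values belonged to RPL30 (60.1), RPS2 (58.7) and RPLP0 (57.4), and the lowest to RPS24 (36.9) and RPL7L1 (37.4). RPS24 thus had 1 of the 3 widest of these peaks, with the lowest value.

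**Figure D5:**
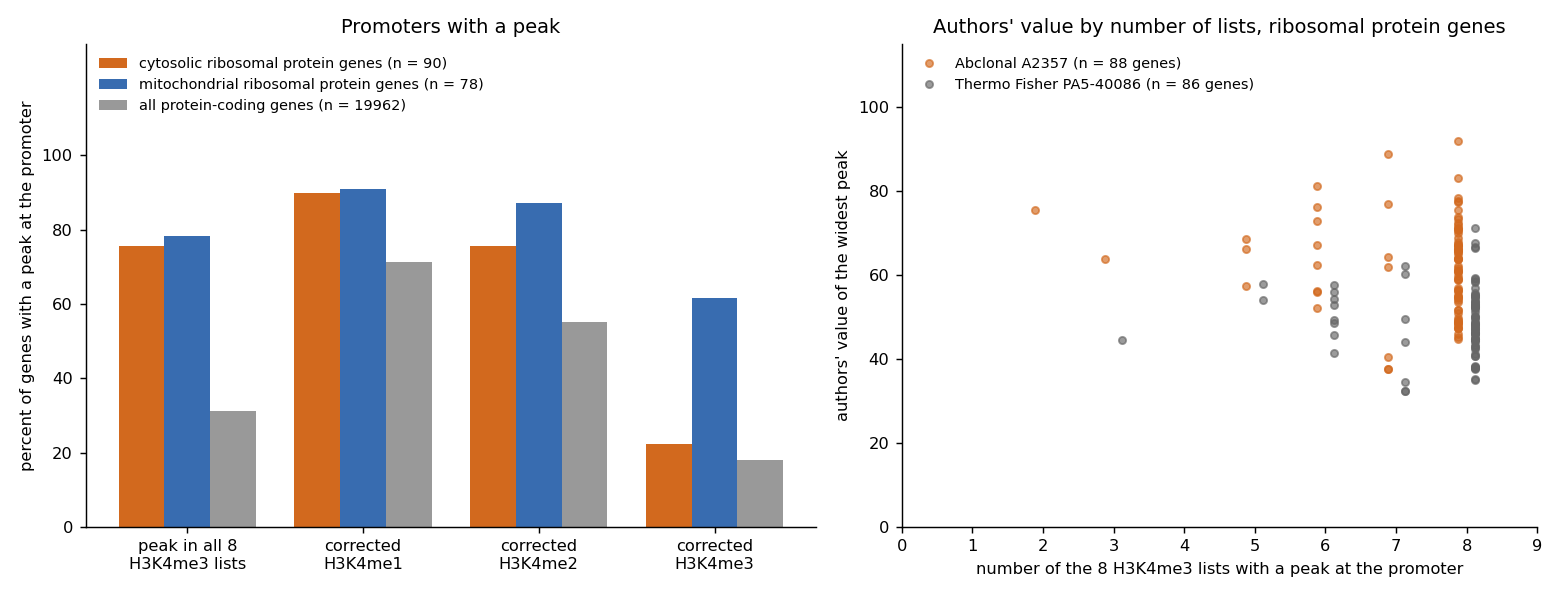
Left, bars show the percent of promoters with a peak in all 8 H3K4me3 lists and in each corrected list, for 90 cytosolic and 78 mitochondrial ribosomal protein genes and all 19962 genes. Right, each point is a ribosomal protein gene, with the authors' value of its widest H3K4me3 peak in 2 lists against the number of H3K4me3 lists (of 8) that hold a peak there. The bars of the 2 ribosomal groups are near each other for all 8 lists and for corrected H3K4me1. They stand at 75.6% and 87.2% for corrected H3K4me2, and at 22.2% and 61.5% for corrected H3K4me3. On the right, the values of genes in 2 to 6 lists lie within the range of those in all 8. Those of RPL17, its readthrough symbol and RPS19BP1, in 7 lists, lie below it.

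Named groups of members are given next. The ubiquitin fusion genes RPS27A and FAU, whose products are cleaved to release ubiquitin or a ubiquitin-like protein, both had peaks in all 17 lists and all 3 corrected marks. RPS27A was covered in full by all 8 H3K4me3 antibodies, and by the H3K4me1 antibodies over 61.2%, 100%, 75.0%, 43.0% and 15.9%. H3K4me1 coverage was lower at both (adjusted p = 0.0234, exact permutation test), against 12.2% of all genes. RACK1, a small subunit protein outside the naming rule, had peaks in all 17 lists too, with mean H3K4me3 coverage of 96.4%, and a corrected H3K4me3 peak.

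Of the 18 genes linked to Diamond-Blackfan anaemia, 17 had a peak in at least 5 of 8 H3K4me3 lists, RPS7 being the exception, and 13 were in all 17 lists. H3K4me1 coverage was lower at 6 (33.3%, against 12.2% of all genes) and the TSS contrast lower at 17, all but RPS29 (94.4%, against 48.4%). A corrected H3K4me3 peak lay at 5 of them, among them RPL5, RPL11, RPS10 and RPS24. Erythroid genes such as GATA1 and KLF1, transcription factors of that lineage, are set beside them without a test of the difference: the TSS contrast was lower at 5 of 16 (31.3%), and the median H3K4me1 coverage was 78.9%, against 61.8% at the ribosomal protein genes.

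The 7 large subunit paralogues split. RPL22L1, RPL26L1, RPL39L and RPL7L1 had peaks in all 17 lists, RPL36AL in 6 H3K4me3 lists, and RPL3L and RPL10L in 1 and 0. RPS27L, the small subunit paralogue, had peaks in all 17. Corrected H3K4me3 peaks lay at RPL7L1, RPL26L1, RPL39L and RPS27L, 4 of the 8 paralogues, against 15 of the 78 ribosomal protein genes proper (19.2%).

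The 9 members on chromosomes 13, 14 and X (RPL21, RPL10L, RPS29, RPL36AL, RPS4X, RPL36A, RPL36A-HNRNPH2, RPL39 and RPL10) were in fewer lists, as were all genes there, a difference that was not tested. None was in all 17 lists, against 74.1% of the other members. Of all 1798 genes on these chromosomes 1.39% were, against 30.5% elsewhere. In all 8 H3K4me3 lists were 4 of the 9 (44.4%), against 79.0% of the other members, with 9.73% and 33.2% over all genes. Active Motif 39635, an H3K4me1 antibody, had 0 coverage at all 9. RPL21 and RPL36A were still covered in full by all 8 H3K4me3 antibodies. Whether chromosome copy number in this line plays a part was not tested.

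Other genes of translation, from lists drawn up for this report, were read the same way. A peak in at least 5 of 8 H3K4me3 lists lay at 28 of 33 initiation factors, all 6 elongation factors, 37 of 38 ribosome biogenesis factors and 75 of 78 mitochondrial ribosomal protein genes. H3K4me1 coverage was lower than H3K4me3 coverage at 20, 4, 13 and 25 of them, against 12.2% of all genes. The TSS contrast was lower at 32, 4, 35 and 76, against 48.4% of all genes. Median H3K4me3 width was 3244 bases at the members, 3050 at the initiation factors, 2909 at the biogenesis factors and 2298 at the mitochondrial ribosomal protein genes, with 2292 for all genes. The mitochondrial group therefore had peaks about as wide as those of all genes and a mean H3K4me3 contrast of 58.4 points, against 26.3 for all genes and 33.6 for the members.

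Marks of silent chromatin did not single out the members. An H3K27me3 peak overlapped 62 of the 90 windows (68.9%), against 73.9% of all genes, and the H3K9me3 list covered all 90, against 98.7% of all genes. The widest overlapping peaks were far wider than the window, with medians at the members of 156062 bases for H3K27me3 and 1282140 for H3K9me3, so these lists say little about a single promoter.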

How the data were processed

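The deposited files are peak lists from internally calibrated ChIP-seq in K562, 1 per antibody. Per the submitters' processing notes, Bowtie2, SAMtools, bedtools and MACS2 were used on GRCh38 (hg38). No source used here gives versions, calling settings or depth. In 17 of 22 lists the authors deposited a score for each peak, which no header names. It is read as an apparent modification density and was compared between genes within a list, with the list medians then averaged per target, and since 4 scores of the corrected H3K4me3 list exceed 100 that reading is uncertain. The H3K27me3 and H3K9me3 lists and those of EpiGentek A-4033-050, Diagenode C15410003 and Abcam ab8580 hold positions only. For the 3 corrected lists the authors combined 4 Abcam libraries (ab8580 and ab12209 for H3K4me3, ab7766, ab8895), per the deposited notes. The other 6 of 25 samples were not analysed here.

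TSSs were those of GENCODE release 44 canonical transcripts. An overlap of 1 base or more with the window counted as a peak. Coverage, TSS contrast and the log2 width of the widest overlapping peak (for genes with a peak in every list compared) were computed per antibody with Python 3.11.15, numpy 2.4.6, pandas 2.3.3 and scipy 1.17.1. The scripts were tested on simulated data. Exact two-sided permutation tests over antibodies ran on every gene, with Benjamini-Hochberg adjustment over all genes. With 5 and 8 antibodies p cannot go below 0.000777. That limit is 0.00202 with 4 and 8, and 0.00794 with 5 and 4. Per-target means carry no test. The members and gene lists were chosen with earlier results of these data known. The rule for named genes took the lists of paralogues, readthrough symbols, stalk, ubiquitin fusion and Diamond-Blackfan genes, members on chromosomes 13, 14 and X, the extremes of H3K4me3 coverage and corrected width, and members with an H3K27me3 or H3K9me3 peak. Since the H3K9me3 list overlapped every member, it admitted all 90. Examples beyond the fixed lists were picked after their values were seen. Results for some genes are not reported here, and 2 members are left out of the plots that label each gene.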

Additional observations from a re-analysis of the deposited data

Results flagged for a closer look

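Of 15 measures over the members (shares, coverage, contrast, widths and values per target), 3 had a list far from the others of its target, by the gap to the nearest list relative to the whole range. Chance flags about 1 group in 20. Active Motif 39635 had a median H3K4me1 peak width of 58107 bases at ribosomal protein genes, where the other 4 H3K4me1 lists had 7202 to 14740. EpiGentek A-4033-050 held an H3K4me3 peak at 77.8% of the members, where the other 7 held one at 88.9% to 97.8%. Abcam ab8580 had a median H3K4me3 width of 8479 bases at the members, where the others had 2145 to 4664. Over all genes these lists had a median width of 77994 bases (Active Motif 39635), a share of 33.5% (EpiGentek A-4033-050) and a median width of 4982 bases (Abcam ab8580). The part of antibody, library or peak calling in them was not tested.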

How the results depend on the processing

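Counts were compared with the main count by their ratio, and shares and widths by an SD, without comparing the calls of single genes. By that rule 142 of the recomputed values stayed the same, 7 moved, 2 rose from 0 and 1 fell to 0. For the coverage test of H3K4me1 against H3K4me3, counts labelled the same ran from 39 to 55 members, against 45. With libraries of 8 cycles alone, the count of members with lower H3K4me1 than H3K4me3 coverage went from 45 to 0 and that of lower TSS contrast from 83 to 30; fewer antibodies enter, and the smallest exact p becomes 0.00794. A window of 2.5 kb gave 3 members for that coverage test (1.28% of all genes) and 5 for H3K4me2 against H3K4me3 (12.9% of all genes). A window of 0.5 kb lowered the H3K4me1 share to 79.6%, and asking for a peak over 50% of the window gave 64.0% for H3K4me1, 91.7% for H3K4me2 and 52 members with a corrected H3K4me1 peak. Leaving out each antibody in turn gave 26 to 49 members for the coverage test (26 without Cell Signaling Technologies 5326 BF), 77 to 83 for the contrast, 55 to 60 for width, 0 to 2 for H3K4me2 against H3K4me3 (2 without Abcam ab8580, with 12.2% of all genes) and 0 to 0 for H3K4me1 against H3K4me2. The shares ran from 90.6% to 95.0% for H3K4me1, 94.1% to 96.3% for H3K4me2 and 91.1% to 94.0% for H3K4me3. Other causes were not tested. The 78 ribosomal protein genes proper gave 40 members for coverage, 74 for contrast, 15 with corrected H3K4me3 and 76 in at least 5 of 8 lists, an alternative chosen after seeing the data. No paired analysis was possible because replicate numbers were given in accession order and only name antibodies. Read depth is unknown, and 1 chromatin source and 1 list per antibody limit what the tests measure.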
